A study of Capra hircus with 2 samples.

Results

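The miR-148 and miR-152 family consists of the microRNAs miR-148a, miR-148b and miR-152, which are read from separate genes and share a seed, the short stretch near the 5′ end through which a miRNA pairs with its target messages. Members were all names of the known miRNA table that read miR-148a, miR-148b or miR-152, whatever the species prefix, arm or end annotation, with a repeated name counted as 1. Of 587 distinct names, 4 were members. These were both arms of miR-148a and both arms of miR-152, and 0 names were of miR-148b. Per the table header a name is that of the first known miRNA of a cluster, although some sequences are listed under more than 1 name, so a count of 0 names does not show that miR-148b was absent, and where reads of miR-148b would have been placed was not tested.

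The samples were endometrium from the anterior uterine wall of Xinong Saanen dairy goats. All goats were multiparous, 24 months old, brought into synchronized estrus and mated naturally, and 10 goats were sampled at each of 2 time points. Gestational day 5 gave the pre-receptive (P) library and gestational day 15 the receptive (R) library, and per the methods each library combined RNA of 9 goats mixed into 3 samples. The tables gave 1 value a miRNA and library, so there were no replicates, the spread between goats was not measured, and every test below compares 2 libraries and not the phases. The listed known miRNAs made up 1904242 reads of library R and 4046632 of library P, summed over all names. Of their sequences 33 are listed under more than 1 name, 24 of these with equal values under each name. Some such names do not have whole reads. Whether the reads were counted under each name or divided among the names was not tested. Values are normalized expression (NE), in which 1 read was worth 0.860 NE in R and 1.16 NE in P. Intervals are 95% exact intervals and cover counting error only, for reads counted after PCR without molecular identifiers.

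A miRNA precursor folds into a hairpin, and its 5p and 3p arms are cut out as a short duplex. As a rule 1 arm is kept in an Argonaute protein as the guide and the other is mostly degraded. For miR-148a and miR-152 the guide is known to be the 3p arm. Known targets of the family include DNMT1, the enzyme that copies DNA methylation after replication, and, in human cells at the border of mother and placenta, the immune molecule HLA-G.

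The detected 3p sequences are shown first, because they carry the family seed. Bases 2 to 8, counted from 1 at the 5′ end, are in capitals.
miR-148a-3p: tCAGTGCActacagaactttgtt
miR-152-3p: tCAGTGCAtgacagaacttgga
Over the 22 positions that both sequences cover, 18 bases were the same. The 4 differences from miR-148a-3p to miR-152-3p were C9T, T10G, T20G and T22A, and thus lay outside the seed. Of all 587 names, these 2 were the ones with this seed.

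The 5p sequences are shown because their seeds differ although the other ends match.
miR-148a-5p: aAAGTTCTgagacactccgact
miR-152-5p: aGGTTCTGtgatacactccgact
The last 11 bases of both were identical. Each of these 5p seeds was found in 1 of the 587 names. Both 5p names carried no annotation of a changed end or base, as was the case for 164 of the 587 names (27.9%).

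The 7 bases of the family seed also occurred at another position in 8 names. In the following pair they began at base 1, so that the seed itself is a different one.
miR-301a-3p: cAGTGCAAtagtattgtcaaagc
miR-130a-3p: cAGTGCAAtgttaaaagggcacc
On the deposited scale these neighbours in sequence differed in direction. For miR-301a-3p the R library had 1421 NE and the P library 999 NE, a log2 ratio of 0.51 (0.39 to 0.63). For miR-130a-3p they had 18.9 and 47.7 NE, a log2 ratio of -1.33 (-2.15 to -0.55) that rests on 22 and 41 reads and becomes 0.19 over the listed reads.

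On the deposited scale every member had a lower NE in the receptive library, but this direction rested on the scaling. miR-148a-3p was the most abundant member, with 3353 NE in R and 6292 NE in P (3899 and 5410 reads). miR-152-3p, like miR-152-5p, is listed in 2 entries with equal values, and NE is given here as that of 1 entry and reads as the sum of both. miR-152-3p had 619 NE in R and 1107 NE in P (1440 and 1903 reads). The order of the members was the same in both libraries, and the 3p arms, which carry the guides, stood above the 5p arms. miR-148a-5p had 324 NE in R and 385 NE in P (377 and 331 reads). miR-152-5p, the least abundant, had 31.0 NE in R and 45.4 NE in P (72 and 78 reads). In a bulk tissue, fewer cells that contain a miRNA and less of it in each cell cannot be told apart.

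**Figure D1:**
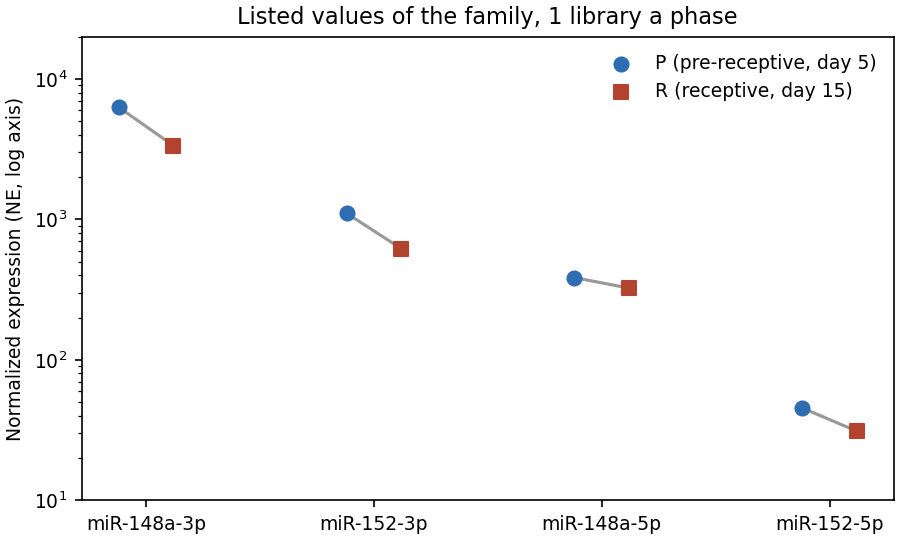
Listed NE (log axis) of the 4 names of the family in the P library (circles) and the R library (squares), with a line joining the values of a name. Each name lies lower in R on the deposited scale, from 6292 to 3353 NE for miR-148a-3p down to 45.4 to 31.0 NE for miR-152-5p, and has 1 value a library, without error bars.

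For miR-148a-3p the log2 ratio (R over P) came to -0.91 (exact interval -0.97 to -0.85), or 1.88-fold lower in R on the deposited scale. It was -0.84 for miR-152-3p (-0.94 to -0.74), which overlaps the interval of miR-148a-3p. The values of the passenger arms lay closer to 0, with wider intervals, and the interval of miR-152-5p includes the value of miR-152-3p. The log2 ratio was -0.25 for miR-148a-5p (-0.46 to -0.03) and -0.55 for miR-152-5p (-1.03 to -0.07). All 4 intervals thus lay below 0 on the scale of NE. Among the 438 known names tested, 25.6% had an interval wholly below 0, and the median log2 ratio was 0.03.

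By the limits of the study (P below 0.05 in the exact test of Fisher and more than 2-fold), but with that test run on reads where the study used normalized values, 0 of the 4 members were called, against 27.6% of the names tested (84 higher and 37 lower in R). As run here, the exact test (two-sided) sets the reads of a name against the remaining clean reads, and so follows the clean reads and not NE. It gave P = 3.52e-05 for miR-148a-3p and, by the same exact test, P = 0.280 for miR-152-3p. For miR-148a-5p the exact test gave P = 9.73e-07, in the opposite direction to its NE. For miR-152-5p it gave P = 0.325 (same exact test).

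The scaling between the libraries decided the direction for the whole family. With reads scaled to the clean reads, every log2 ratio rises by 0.78, and with reads scaled to the listed known reads it rises by 1.52. On the first of these scales miR-148a-3p came to -0.13 and miR-152-3p to -0.05, still lower in R, whereas miR-148a-5p came to 0.54 and miR-152-5p to 0.23. On the second scale all 4 members were higher in R, with log2 ratios from 0.61 for miR-148a-3p to 1.28 for miR-148a-5p, and miR-148a-5p would then be called higher, as would 210 of all 438 names tested. The exact test against the clean reads was not rerun for each scale, so only the fold part of a call changed with the scaling. With the median of the tested names set to 0 the 4 members were lower in R, by a further 0.03 than on the deposited scale.

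**Figure D2:**
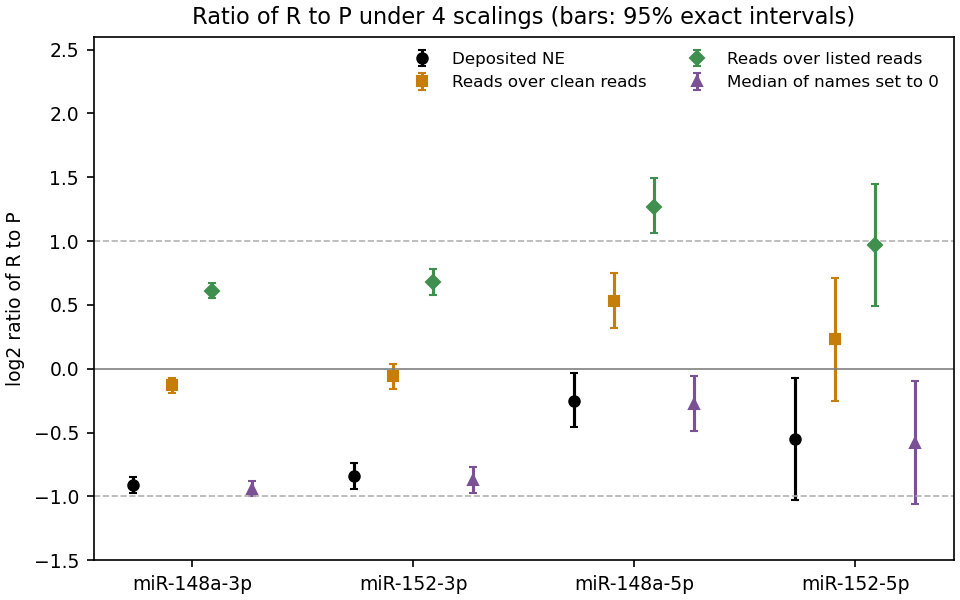
Log2 ratio of R to P for each member under 4 scalings, with 95% exact intervals for counting error; dashed lines mark 2-fold. The deposited values and those with the median at 0 lie below 0, the values over listed reads lie above 0 for each member, and those over clean reads lie close to 0 for the 3p arms, at -0.13 for miR-148a-3p and -0.05 for miR-152-3p.

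Ranks do not depend on the scaling between the libraries, but those of miR-152 depend on the handling of its entries. By NE as listed, miR-148a-3p ranked 41 of 532 names detected in R and 35 of 502 detected in P. miR-152-3p ranked 86 in R and 67 in P by NE, and 73 and 53 by its summed reads, an alternative added after seeing the data. The passenger arms also stood lower in the order of R, which contained more names, with miR-148a-5p at 110 and 95 and miR-152-5p at 239 and 198 by NE (196 and 160 by summed reads). Placed among the 149 names with at least 100 reads in both libraries, whose median log2 ratio was -0.31 and of which 92 were below 0 in NE, miR-148a-3p had 32 names with a lower ratio. miR-152-3p had 36 names below it in the same comparison, and miR-148a-5p had 78. The 3p arms thus lay in the lower part of the abundant miRNAs, and miR-148a-5p near their middle.

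The reads of all members summed to 5788 for R and 7722 for P. This was 0.304% of the listed known reads for R (0.296% to 0.312%) and 0.191% for P (0.187% to 0.195%). With 1 name kept for each sequence, an alternative added after seeing the data, the shares were 0.340% for R and 0.223% for P. Where the names of a sequence had unequal values or divided its reads, this leaves out reads that were not repeats. The most abundant name, aja-miR-143_1ss22GT, held 17.7% of the listed reads in R and 39.7% in P. When it was left out, the family made up 0.369% of the remaining reads in R and 0.316% in P. As a share of the clean reads the family stood at 0.137% in R and 0.143% in P. The larger share in R was thus seen among the listed reads and not among the clean reads, and the part of miR-143 in it was not tested beyond these values.

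Ratios within a library need no scaling, but the level of miR-148a over miR-152 depends on the entries of miR-152. miR-148a-3p had 2.71 reads for each read of miR-152-3p in R (2.55 to 2.88), against 2.84 in P (2.70 to 3.00). With the reads of 1 entry these ratios were 5.42 and 5.69. The log2 change of this ratio was -0.07 (exact interval -0.19 to 0.05, P = 0.236, two-sided Fisher's exact test), so a difference between the guides of miR-148a and miR-152 was not detectable at this depth. Between the passenger arms the ratio of miR-148a-5p to miR-152-5p was 5.24 in R (4.06 to 6.83) and 4.24 in P (3.31 to 5.50), with intervals that overlap (10.5 and 8.49 with the reads of 1 entry). Both arms of miR-148a together made up 73.9% of the reads of the family in R and 74.3% in P (85.0% and 85.3% with the reads of 1 entry).

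The arms of miR-148a, by contrast, were not in the same proportion in both libraries. There were 10.3 reads of miR-148a-3p for each read of miR-148a-5p in R (9.30 to 11.5), against 16.3 in P (14.6 to 18.3). The log2 change of the arm ratio was -0.66 (exact interval -0.89 to -0.43). It passed the test over all hairpins, with an adjusted P = 2.86e-08 (two-sided Fisher's exact test, Benjamini-Hochberg adjustment over 35 hairpins). For miR-152 the ratio of 3p to 5p was 20.0 in R (15.8 to 25.7) and 24.4 in P (19.5 to 31.0). Its log2 change was -0.29 (exact interval -0.78 to 0.21), with an adjusted P = 0.349 in the same exact test. The interval includes the change found for miR-148a, and whether the hairpins differ in this was not tested. Over both hairpins, the 3p arms held 92.2% of the family's reads in R and 94.7% in P.

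Of the 35 hairpins with at least 10 reads of each arm in each library, 31.4% passed the adjusted test, 8 with a higher and 3 with a lower ratio of 3p to 5p in R. miR-148a was among the 3. The hairpin of miR-28 had the largest fall among those that passed, with a log2 change of -1.64, and that of miR-574 the largest rise, with 2.13. For both of these the table also lists a name without an arm, whose reads were left out. When the 10 hairpins with such a name were left out, an alternative added after seeing the data, 25 hairpins could be tested. Of these 7 passed, 6 with a higher ratio and 1, miR-148a, with a lower ratio of 3p to 5p in R. Over all 35 hairpins the median log2 change was 0.16.

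**Figure D3:**
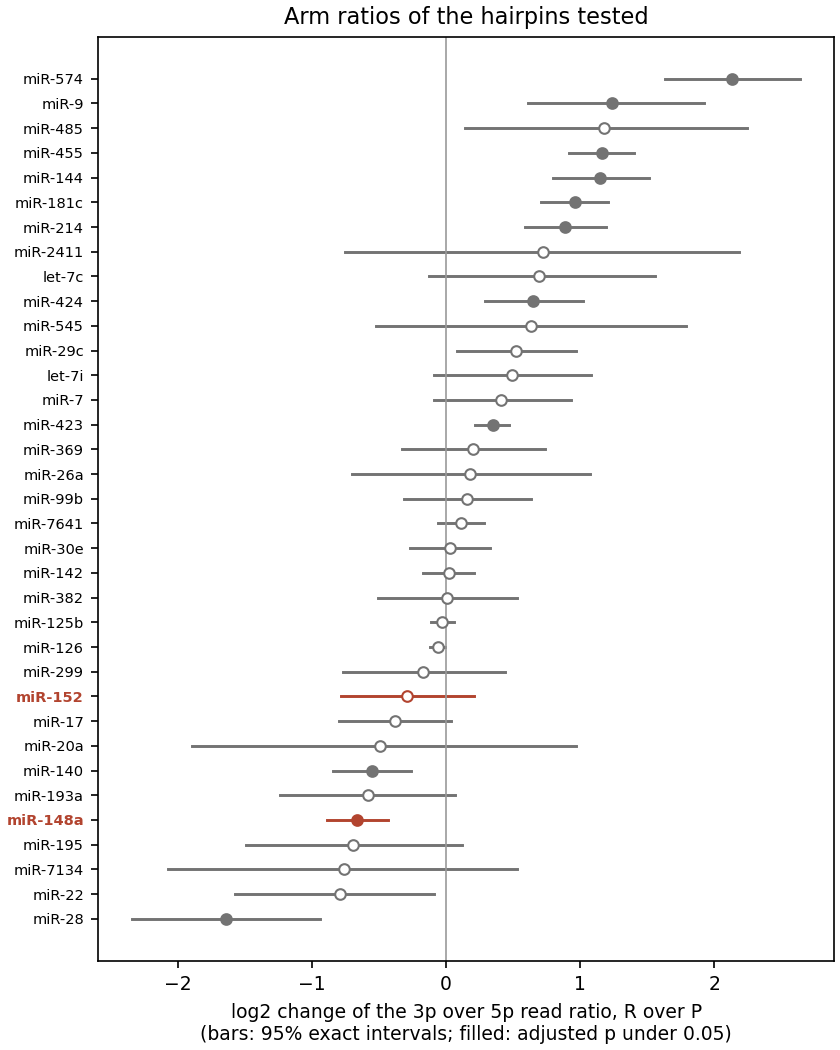
Log2 change from P to R of the ratio of 3p to 5p reads for each of the 35 hairpins tested, with 95% exact intervals; filled points passed the adjusted test. miR-148a lies at -0.66 with an interval wholly below 0, and miR-152 at -0.29 with an interval that includes 0.

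Both guides were listed with an altered 3′ end. The detected miR-148a-3p was 23 nt long and carried 1 base more on the right than its listed reference. The detected miR-152-3p was 22 nt long and differed from its reference by G22A, its last base. Both kinds of change were common in the table. An extension by 1 base on the right was annotated for 95 of the 587 names (16.2%), and 57 of these 95 ended in T, as miR-148a-3p did. A substitution at the last base was annotated for 55 names, of which 20 ended in A and 29 in T. The change from G to A was that of 6 of the 55 names, miR-152-3p included. Whether the detected last bases are in the goat genome or were added to the RNA was not tested. The table lists the main sequence of each cluster, so shorter and longer forms of a member could not be compared between the libraries.

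By distance on the log2 NE of R and P, the names nearest to miR-148a-3p were mdo-miR-181b-5p (3170 NE in R and 7214 NE in P, distance 0.21), cfa-miR-196b (2886 and 5980 NE, 0.23) and oar-let-7b_R+2 (4229 and 7312 NE, 0.40). Nearest to miR-152-3p was oar-miR-369-3p (644 NE in R and 1070 NE in P, distance 0.07). It was followed by miR-30e-5p (736 and 1149 NE, 0.25), which is listed under a cow and a hamster name with the same sequence. The 3p arms and all of these neighbours turn higher in R over the listed reads. For miR-152-3p the closeness in level holds for the NE of 1 entry, since oar-miR-369-3p had 749 and 920 reads and miR-30e-5p 856 and 988, fewer than the 1440 and 1903 summed reads of miR-152-3p. With 2 libraries such closeness means no more than a like NE and a like ratio.

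**Figure D4:**
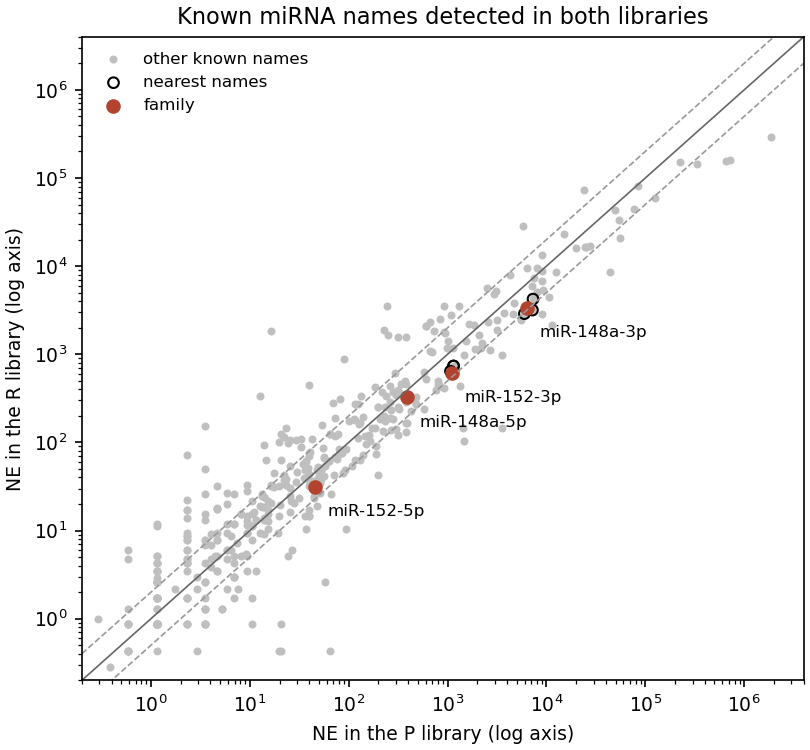
NE in R against NE in P (log axes) for the known names detected in both libraries, with the family in red and the names nearest to its 3p arms as open circles; the line marks equal NE and the dashed lines 2-fold. The 4 members lie between the line and the lower dashed line, with miR-148a-3p farthest up at 3353 NE in R and 6292 NE in P.

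Other miRNAs known to repress DNA methyltransferases were taken as a list of 7 numbers, of which 6 had a name in the table (miR-101 without a letter had none). Names were taken by number whatever the arm, and so include opposite arms such as miR-29c-5p, miR-143-5p and miR-185-3p. Opposite arms carry other seeds, and whether they repress these enzymes was not tested. miR-101b, which was not on the list, was lower in R (8689 NE, against 43585 NE in P). Among the 9 names that could be tested, 1 was called higher and 2 lower in R (84 and 37 of all 438), and the median log2 ratio was 0.03, equal to the 0.03 over all 438 names. The balance of this list turned with the scaling, with 3 called higher and 1 lower over the clean reads (158 and 19 of 438), and 5 and 1 over the listed reads (210 and 10 of 438). Both names called lower were of miR-143, a miRNA of smooth muscle. aja-miR-143_1ss22GT had 289634 NE in R and 1866274 NE in P, and hsa-miR-143-5p_1ss22TA had 238 and 577 NE, a direction that turns over the listed reads. The name called higher, hsa-miR-185-3p_L+1R-1_1ss22TC, is an opposite arm and rested on 9 and 2 reads. The miR-29 group, known to repress DNMT3A and DNMT3B, was likewise taken by number, with its 5p arms. It had 0 of 5 tested names past the limits on the deposited scale (27.6% of all names). Over the clean reads the group had 1 name called higher in R (158 of all 438), and over the listed reads 3 (210 of 438). Its most abundant name, ssc-miR-29a_L-1R-1, had a log2 ratio of 0.57 (exact interval 0.53 to 0.61), and oar-miR-29a_1ss10CT had one of 0.05 (-0.03 to 0.14). On the deposited scale hsa-miR-29c-5p_R+1 was at -0.97 (-1.34 to -0.60) and cgr-miR-29c-3p_R+2 at -0.45 (-0.69 to -0.20), both of which become positive over the listed reads. bta-miR-185, which is known to repress DNMT1 as the family does, was at 0.46 (0.25 to 0.67), and passed the limits over the clean and the listed reads.

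**Figure D5:**
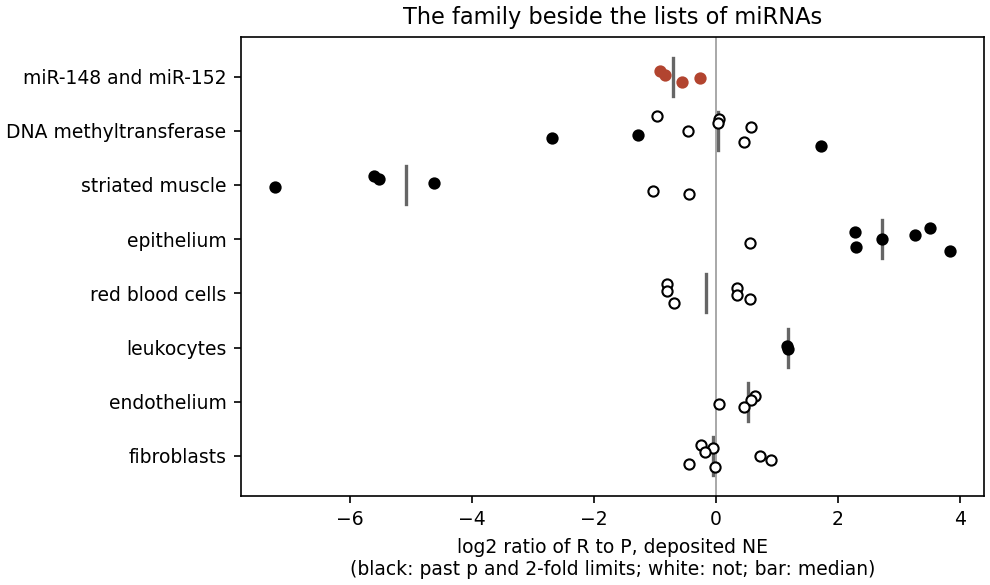
Log2 ratio of R to P on the deposited scale for each tested name of the family and of the 7 lists, with the median of each list as a bar; black points passed the P-value and 2-fold limits. The family lies between -0.91 and -0.25, the list of the striated muscle reaches below -5 in its median of -5.07, and that of the epithelium has a median of 2.73.

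Some of the lists of cell type markers moved between the libraries on the deposited scale while the family's values changed. Their part in those values was not tested. Smooth muscle had no list of its own, and whether the samples held striated muscle cells was not tested. Of the epithelial miRNAs, 4 of 5 numbers had a name (miR-200b had none). Their summed NE was 32080 in R and 6406 in P, 6 of 7 names were called higher and 0 lower in R (84 and 37 of all 438), and the most abundant was hsa-miR-141-3p_R-1 with 28337 NE in R and 5791 NE in P. Of the miRNAs of striated muscle, 4 of 6 numbers had a name (miR-133b and miR-206 had none). Their summed NE was 211 in R and 3795 in P, and 4 of 6 names were called lower and 0 higher in R (37 and 84 of all 438). The most abundant, oar-miR-133_L+1, went from 3558 NE at day 5 to 145 NE at day 15. The median log2 ratios of these lists, 2.73 for the epithelium and -5.07 for the striated muscle, lay farther from 0 than the ratio of any member, and each kept its direction under each scaling. The muscle median rests on few reads, since 4 of its 6 names had at most 1 read in R. hsa-miR-499a-5p, with 74 and 112 reads, was at -1.03 (exact interval -1.48 to -0.60), and thus past 2-fold. It was not called, with P = 0.268 in Fisher's exact test, which follows the clean reads and not NE.

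The leukocyte list had names for 2 of 3 numbers (miR-150 had none) and a summed NE of 6114 in R and 2709 in P. Its name of miR-223, oan-miR-223-3p_1ss22AT, had 1 read in R and 0 in P and was not tested. Both tested names, the arms of miR-142, were called higher in R (84 of all 438), and the more abundant, cgr-miR-142-5p_L-2R+1, had 5689 NE in R and 2524 NE in P. Of the red blood cell, endothelial and fibroblast lists, 0 names were called on the deposited scale (27.6% of all names). Over the clean reads 2 red blood cell, 3 endothelial and 2 fibroblast names of 6, 4 and 7 were called higher in R, against 158 of all 438, and over the listed reads 2, 3 and 5, against 210 of 438. The 2 red blood cell calls are 1 sequence of miR-144 under 2 names. The red blood cell names summed to 6107 NE in R and 9425 NE in P, led by cgr-miR-486-5p with 5052 and 8073 NE (higher in R over the clean and the listed reads), while ssc-miR-451_L+3R-1 rested on 2 reads (R) and 1 read (P). These sums count 2 sequences of miR-144 under each of 2 names. On the deposited scale 3 of the 6 red blood cell names had a log2 ratio above 0 and 3 below. Among those above was hsa-miR-144-3p, listed also as aja-miR-144, at 0.35 (0.07 to 0.63). The endothelial miR-126 summed to 32841 NE in R and 21287 NE in P, led by hsa-miR-126-5p with 23369 and 14955 NE. The fibroblast names summed to 97321 NE in R and 97155 NE in P, led by oar-miR-199a-3p with 82015 and 84822 NE (likewise higher in R over the clean and the listed reads). On the deposited scale 2 of the 7 fibroblast names had a log2 ratio above 0 and 5 below. The 2 above were bta-miR-199b at 0.90 (0.86 to 0.94) and hsa-miR-214-3p at 0.72 (0.57 to 0.86).

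The conservation table names precursors of other species that match the miRNAs found in the goat. Of its 23 species, 14 listed a precursor of the family. mir-152 was listed for 12 species, mir-148b for 10 and mir-148a for 6, and a mir-148 without a letter for 2. mir-148b was thus listed among the matches although 0 expression values were named after it. In the RefSeq gene table of the goat (assembly ARS1.2), MIR148A and MIR148B were found by symbol, and MIR152 was not. MIR148B lies within COPZ1, a gene for a subunit of the coat of transport vesicles, and MIR148A lies within LOC108635844, with NPVF and NFE2L3 as the nearest named coding genes on either side.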

How the data were processed

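The authors kept reads of 18 to 26 nt, removed other RNA classes, matched the rest to miRBase precursors and the goat genome, and deposited a normalized signal for each miRNA and library. Tested on the values, this signal is reads divided by 1 size factor a library (1 read is worth 0.860 NE in R and 1.16 NE in P) and not a share of the clean reads as the methods state. All entries of a name listed more than once (54 names) were equal. Divided by that worth, 15 of 49 such names detected in R were whole reads (within 0.01) as listed and 47 when summed over entries, so their reads were summed, while NE was taken as listed. After summing, 85.2% of the names detected in R and 87.5% in P were whole. Reads were rounded for tests.

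Names above 0 in both libraries with at least 1 NE in 1 of them were compared with Fisher's exact test (two-sided) against the clean reads (4233874 in R, 5386427 in P), without adjustment as in the study, whose formula takes normalized values in place of the reads used here. Arm ratios were adjusted over all hairpins tested (Benjamini-Hochberg). Intervals are exact (Clopper-Pearson for shares and ratios, conditional for changes of a ratio). Named are the members, the 3 names nearest to each 3p arm, the DNA methyltransferase names with at least 100 reads in both libraries, the hairpin with the largest arm change in each direction and the leading name of each cell type list. hsa-miR-185-3p_L+1R-1_1ss22TC, miR-101b, ssc-miR-451_L+3R-1, oan-miR-223-3p_1ss22AT, hsa-miR-499a-5p, hsa-miR-144-3p, bta-miR-199b, hsa-miR-214-3p, miR-301a-3p and miR-130a-3p were added after their values were seen. The members and lists were chosen with earlier results of these data known. Counting names with the same sequence as 1, leaving out hairpins that also have a name without an arm, and ranking by summed reads, were alternatives chosen after seeing the data. The tests and intervals were tried on simulated reads, with ratios scaled to the clean reads. That setting does not cover the calls made here, which pair a fold in NE with a test on the clean reads. Predicted candidates, predicted targets and the authors' own fold changes and P-values were not used here. Python 3.11.15, numpy 2.4.6, scipy 1.17.1 and matplotlib 3.10.9 were used.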

Additional observations from a re-analysis of the deposited data

How the results depend on the processing

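The scaling changed the direction of several ratios, and the other choices for the ratio changed no direction. Scaled to the clean reads, the log2 ratio became 0.54 for miR-148a-5p, 0.23 for miR-152-5p, 0.05 for oar-miR-369-3p, 0.14 for both names of miR-30e-5p, 0.33 for cgr-miR-29c-3p_R+2, 0.11 for cgr-miR-486-5p and 0.73 for oar-miR-199a-3p. Scaled to the listed known reads, it became 1.28 for miR-148a-5p, 0.61 for miR-148a-3p, 0.97 for miR-152-5p, 0.69 for miR-152-3p, 0.34 for mdo-miR-181b-5p, 0.47 for cfa-miR-196b, 0.73 for oar-let-7b_R+2, 0.79 for oar-miR-369-3p, 0.88 for both names of miR-30e-5p, 0.55 for hsa-miR-29c-5p_R+1, 1.07 for cgr-miR-29c-3p_R+2, 0.25 for hsa-miR-143-5p_1ss22TA, 0.85 for cgr-miR-486-5p and 1.47 for oar-miR-199a-3p. The construction of these scales shows the cause, a shift common to all names. The names called higher and lower in R were 84 and 37 on the deposited scale, 158 and 19 over the clean reads, and 210 and 10 over the listed reads. On the deposited scale with at least 10 reads in both libraries they were 47 and 30.

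The arm ratio of miR-148a passed, and that of miR-152 did not pass, under each alternative. Without hairpins that also have a name without an arm, 7 hairpins passed in place of 11, with fewer hairpins tested. With the reads of 1 entry the share of the family among the listed reads was 0.268% for R and 0.167% for P, still higher in R. With 1 name kept for each sequence the share was 0.340% and 0.223%, in the same direction. Depth limits miR-152-5p most, with 72 and 78 reads. The libraries have no replicates, so no library could be left out, and differences between goats, pools or library preparations cannot be told apart from those between the phases.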
